A study of Bos grunniens with 6 samples.

Results

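The testis RNA of cattle-yaks, the sterile male hybrids of yak and cattle, was profiled for N6-methyladenosine (m6A) by MeRIP-seq, in which fragments bound by an antibody to m6A (IP) were sequenced beside unselected RNA (input). The regions described here were m6A peaks that the deposited annotation placed in the 3' UTR and that were more than 1000 and up to 50000 bp wide. They numbered 1065 of the 16186 peaks in the list and lay on 1035 of the 8986 genes with a peak. Of the 3373 peaks in the 3' UTR class, 31.6% were wide in this sense (95% Wilson interval 30.03 to 33.16%), 2268 were narrow, with at most 1000 bp, and 40 were wider than 50000 bp. The samples came from 3 cattle-yaks, all 5 years old and untreated as far as the labels say, named TES5, TES6 and TES7, with 1 IP and 1 input library from each, so 6 libraries in all formed 1 condition.

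m6A is laid down on mRNA in the nucleus by a writer complex around METTL3 and METTL14, removed by the demethylases FTO and ALKBH5, and read by YTH domain proteins. In mammals it is known to gather near stop codons and in the 3' UTR, where proteins and microRNAs that set the life span and translation of an mRNA also bind. Several of its writers, erasers and readers are needed for normal spermatogenesis in mice.

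The width of a peak was its span on the genome, so it counted any intron between its edges, and the list did not give the exonic blocks. It was 1 list for the group of animals, without scores or values per animal, and the spread between animals was therefore measurable for input expression only, in FPKM (fragments per kilobase of transcript, scaled to the mapped fragments of the library). Read numbers cannot be had from FPKM, and the depth behind a single value is unknown. Because the table of FPKM has identifiers only, gene names came from the peak list, and a gene without a peak had no name here. Of 20 Sertoli cell markers, 10 were named in this way, with a mean FPKM of 4.01 to 81.3. Of 23 spermatogonial markers, 10 were named, at 0.79 to 22.8, and of 27 spermatid markers 5, at 0.72 to 30.7. Only markers with a peak had a name, so these levels cannot stand for the whole lists or show which cell types were present. Bulk tissue cannot tell fewer cells of a type from less RNA per cell.

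The wide peaks had a median width of 3968 bp, with quartiles at 1992 and 9398 bp. Up to 2000 bp there were 269 of them (25.3%), above that and up to 5000 bp 348, up to 10000 bp 201, up to 20000 bp 149 and beyond 20000 bp 98. Beside the lower limit, TOR1AIP1 and CACNA1H, each with a peak of 1000 bp, stayed outside, and IREB2, 1 bp wider, and PHC1 at 1006 bp were inside. At the upper limit, IPMK at 49096 bp and VIRMA at 49742 bp were inside, and ACAA1 at 51117 bp and SPATA16 at 51311 bp were outside. Wide peaks were a smaller share of the 3' UTR class than of the 5' UTR class, where they made up 51.0% (48.4 to 53.6%), and of the exon class, where they made up 52.5% (51.6 to 53.5%). These intervals cover counting error only, and peaks are not replicates.

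The downstream edge of the wide peaks lay close to the end of the transcript. It stopped a median of 400 bp short of the 3' end of the transcript listed for the peak, against 448 bp for narrow 3' UTR peaks, and it lay within 1000 bp of that end for 736 peaks (69.1%, 66.3 to 71.8%) against 77.1% of narrow ones. In 94 wide peaks (8.83%) the edge fell on the last base of the transcript, as it did in 8.73% of the narrow peaks. The upstream edge of the wide peaks was a median of 4723 bp from the 3' end, which follows in part from the width that chose them.

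Not all wide peaks ended there. The downstream edge ran past the listed 3' end in 140 wide peaks (13.1%, 11.2 to 15.3%), compared with 4.41% (3.64 to 5.33%) of narrow peaks, and by more than 1000 bp in 91. All of these peaks overlapped their listed transcripts, so a narrow peak could not run past by more than 1000 bp. The difference in these shares thus follows in part from the width that chose the groups. RAD21, a subunit of the cohesin ring that holds sister chromatids together, had the peak that ran furthest, 43347 bp past the end (chromosome 18, 37492691 to 37537970, LU_Bosgru_v3.0). In 238 wide peaks the edge stopped more than 1000 bp short, and in 68 it stopped more than 10000 bp short. For the latter the listed transcript continued well beyond a peak that carried the 3' UTR label. TAF4B, a germ cell subunit of the transcription factor TFIID, was such a case, with a peak of 48108 bp that stopped 72210 bp short.

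A wide peak covered a median of 10.1% of the span of its transcript, and 134 (12.6%) covered more than 50% of it. In 16 the whole transcript lay inside the peak. The transcripts had a median span of 42471 bp, against 28010 bp for narrow 3' UTR peaks and 37138 bp for all peaks. It was 50495 bp for wide exon peaks and 30279 bp for wide 5' UTR peaks, which covered a median of 10.3% and 20.9% of their transcripts. The share of 3' UTR peaks that were wide was 23.2% (20.1 to 26.8%) on transcripts of up to 10000 bp and 36.8% (33.2 to 40.6%) on those above 100000 bp, and across the 1065 peaks width and transcript span had a Spearman rho of 0.22. Peaks that share a transcript also share its span. A short transcript leaves less room for a wide peak, so these relations of span and width follow in part from the width that chose the peaks.

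**Figure D1:**
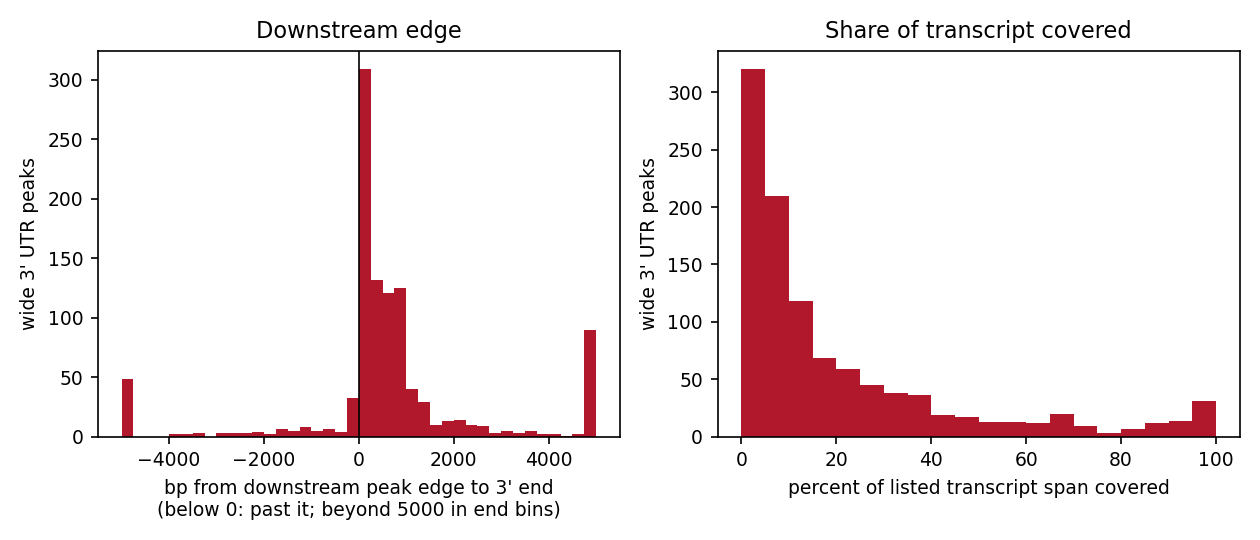
Left, the distance in bp from the downstream edge of each of the 1065 wide 3' UTR peaks to the 3' end of its listed transcript (250 bp bins, values beyond 5000 bp in the end bins). Right, the percent of the transcript span that the peak covers (bins of 5 percentage points). Most edges sit just short of the 3' end, and the median peak covers 10.1% of its transcript.

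The widths themselves often kept to a spacing of 50 bp in the shortest peaks, and less so as width rose. Of the narrow 3' UTR peaks, 43.8% (41.8 to 45.9%) had a width at a multiple of 50 bp or 1 bp less, and of the wide ones 4.41% (3.33 to 5.82%), where an even spread of widths gives 4%. The share was 57.9% in peaks of up to 300 bp, 32.6% above that and up to 500 bp, 19.8% up to 750 bp and 8.92% up to 1000 bp. Thus most of the fall lay among the narrow peaks, and the contrast between narrow and wide depends on where the limit cuts it. Wide peaks of the 5' UTR class, at 4.53%, and of the exon class, at 4.40%, had the same low share. What sets this spacing was not tested.

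**Figure D2:**
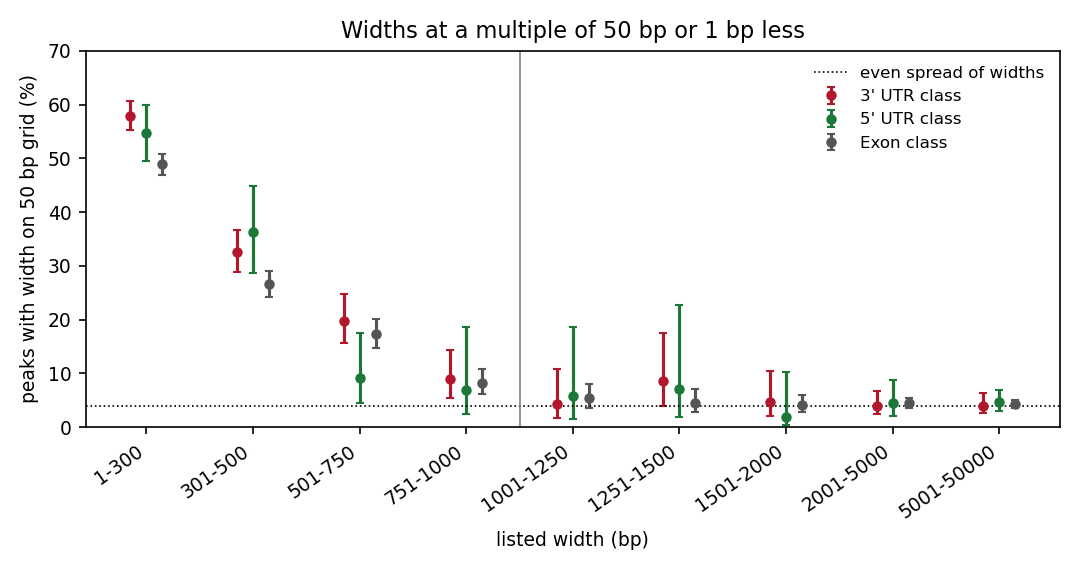
The percent of peaks whose width is a multiple of 50 bp or 1 bp less, by listed width in bp and by class, with 95% Wilson intervals. The dotted line is the 4% that an even spread of widths gives, and the grey line marks the lower limit of the wide peaks. The share in the 3' UTR class falls from 57.9% in the shortest peaks to 4.41% over all wide ones.

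Genes with a wide 3' UTR peak were expressed at a higher level in the input RNA than genes with a narrow one. Their median FPKM was 9.997 in TES5, 10.06 in TES6 and 10.18 in TES7, or 10.1 ± 0.0907 (SD, n = 3), over 1031 genes with a value. The genes with a narrow 3' UTR peak had medians of 7.46, 7.62 and 7.73, or 7.602 ± 0.134, over 1960 genes. The lowest median of the wide group thus lay above the highest of the narrow group. On the log2 scale the medians differed by 0.42, 0.40 and 0.40, a mean of 0.41 ± 0.0136, or 1.33-fold, and 150 genes with both kinds of peak counted in both groups. Over the genes that reached an FPKM of 1 in all 3 libraries the difference was smaller, 0.27. The difference was larger than the spread between animals. The genes of each group were the same in every animal, so this spread covers the likeness of the libraries and not the choice of genes. An exact sign-flip permutation test over the 3 animals gave a two-sided p of 0.25. This is the smallest p it can give with 3 animals, so the test cannot decide whether the groups differ.

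The same direction held within each class of transcript span. The mean log2 difference was 0.35 up to 10000 bp, 0.56 up to 30000 bp, 0.35 up to 100000 bp and 0.55 above it, and it was above 0 in each animal in all 4. It also held in the other classes of peak, at 0.31 ± 0.0345 for 5' UTR and 0.67 ± 0.0142 for exon peaks, so it was not a feature of the 3' UTR alone. Among the wide 3' UTR peaks themselves, the median was lower in the widest class than in the first 2 classes. The mean of the 3 medians was 10.4 ± 0.0526 for peaks of up to 2000 bp, 10.9 ± 0.381 above that and up to 5000 bp, 9.47 ± 0.308 up to 10000 bp, 9.46 ± 0.544 up to 20000 bp and 8.83 ± 0.392 beyond. Each animal had a lower median in the widest class than in either of the first 2 classes. Against the classes up to 10000 bp and up to 20000 bp the animals differed. In TES5 the widest class was higher, at 9.28 against 9.17 and 8.97, and in TES6 and TES7 it was lower than both. The median transcript span also rose, from 32128 bp in the first width class to 69916 bp in the widest. Genes with a wide peak had a mean of medians of 12.2 on transcripts of up to 10000 bp and 7.56 on those above 100000 bp. The part of span in the lower median of the widest peaks was not tested. Over single peaks the relation was weak, and rho between width and mean FPKM was -0.0652 over 1061 peaks.

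**Figure D3:**
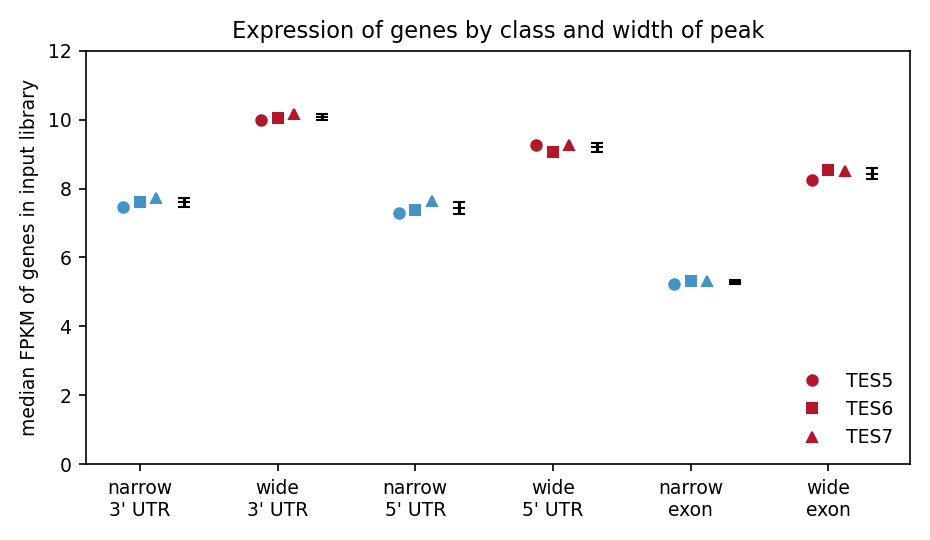
The median FPKM, in each animal's input library (circle TES5, square TES6, triangle TES7), of the genes with a narrow (blue) or wide (red) peak of each class; black bars are the mean and SD of the 3 medians. Wide peaks go with the higher median in all 3 classes, 10.1 against 7.602 in the 3' UTR class.

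Almost all of these genes were expressed in every animal. In all 3 input libraries the FPKM reached 1 for 984 of them (95.4%, 94.0 to 96.6%), compared with 89.2% (87.7 to 90.5%) of the genes with a narrow 3' UTR peak and 86.9% (86.2 to 87.6%) of all genes with a peak. Per the study's methods, input was also the control for calling peaks, so having a peak and the input FPKM are not independent. Seen from the side of expression, 0.78% of the genes with a mean FPKM above 0.1 and up to 1 had a wide 3' UTR peak. The share was highest, 11.2% (9.98 to 12.4%), above 10 and up to 20, and it was 4.51% (2.87 to 7.02%) above 100. Taking only the genes with any 3' UTR peak, the share with a wide one was 15.1% (10.5 to 21.2%) above 0.1 and up to 1, 40.6% (37.0 to 44.3%) above 10 and up to 20 and 48.6% (33.4 to 64.1%) of the 37 genes above 100. At lower levels it was 37.5% (13.7 to 69.4%) of 8 genes at a mean of 0 and 30.8% (12.7 to 57.6%) of 13 genes above 0 and up to 0.1, too few to place against the rest. The number of fragments over a transcript moves with its FPKM, and the part this has in the width of a called peak was not tested.

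**Figure D4:**
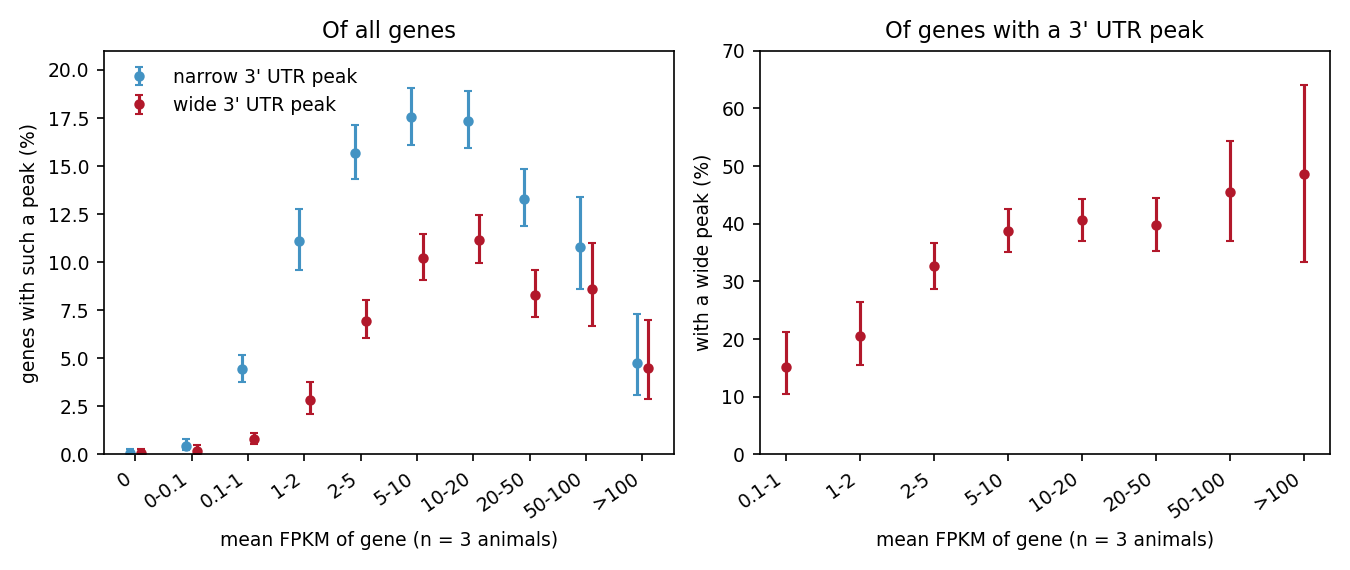
By mean FPKM of the gene over 3 animals: left, the percent of all genes in the table with a narrow (blue) or a wide (red) 3' UTR peak; right, the percent with a wide peak among the genes with any 3' UTR peak. Bars are 95% Wilson intervals. The wide share on the right is 15.1% in its lowest and 48.6% in its highest class, and the 8 and 13 genes of the lowest 2 classes on the left are not drawn there.

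The 10 members with the highest expression had a mean FPKM of over 100. PDIA3, a disulfide isomerase of the endoplasmic reticulum, had an FPKM of 210 in TES5, 208 in TES6 and 209 in TES7, and its peak of 3151 bp ended 49 bp short of the 3' end. P4HB, another disulfide isomerase, had 218, 224 and 251 and a peak of 1140 bp. CANX, the lectin chaperone calnexin, had 165, 181 and 208 and a peak of 2421 bp. BCAP31, which escorts membrane proteins out of the reticulum, had 254, 169 and 203, so TES5 was high and TES6 low.

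YWHAZ, a 14-3-3 adaptor, had 161, 194 and 186, APLP2, a relative of the amyloid precursor, had 151, 144 and 151, and the gene listed as PDE8A had 137, 103 and 122 on a transcript that spanned 3567 bp. The other identifier with the PDE8A symbol spanned 151186 bp and had 9.60, 10.6 and 9.24, so the level of the phosphodiesterase of that name was not settled. The 3 highest members carried symbols shared by several identifiers. They were listed as CSTL1 (408, 272 and 372), PPP1R3F (357, 276 and 319) and CLDN19 (320, 227 and 190), and the gene behind each was not settled. Such shared symbols were on 184 of the 1031 named member genes (17.8%), close to the 19.8% of all genes with a peak. They include BCAS2, EMCN, CNOT10, PAN3, ROCK2 and IQGAP1 among the members described here.

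The 10 widest members measured 43517 to 49742 bp and differed widely in expression. RDX, the protein radixin that ties actin filaments to the membrane, had an FPKM of 24.8, 26.5 and 27.6, and its peak of 44418 bp covered 62.1% of the transcript. MACO1, a membrane protein known from neurons, had 19.2, 17.3 and 15.2 with a peak of 48829 bp. The gene listed as IPMK had 10.3, 8.84 and 6.04, and its peak covered 94.7% of the transcript. Its listed terms were those of the cell cycle and polyubiquitination, and the terms of an inositol kinase were on the other identifier with this symbol, which had an exon peak only. At the low end, YAF2, a partner of Polycomb proteins, had 1.56, 2.25 and 2.18. RAD21 was the highest of the 10, with 67.9, 88.2 and 77.7. The others were NRBF2, an autophagy factor, at 8.45 to 9.48, SH3GL3, an endophilin of membrane curvature, at 14.7 to 16.2, TAF4B at 22.7 to 24.7, ZNF182, a zinc finger protein whose symbol is on 3 identifiers, at 6.88 to 16.1, and VIRMA.

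A single wide 3' UTR peak was the rule, since 1009 genes had 1, 23 had 2, 2 had 3 and 1 had 4. The gene with 4 was BPTF, which encodes the chromatin reader of the NURF remodelling complex. Its peaks measured 8847, 7624, 2440 and 1323 bp, and the one nearest the 3' end stopped 9563 bp short of it. The gene's FPKM was 9.02 in TES5, 13.0 in TES6 and 12.6 in TES7. PRRC2C, an RNA-binding protein of stress granules, had 3, of which 1 ended 699 bp and the others 41199 and 47596 bp from the 3' end. The gene listed as MICOS13, a symbol on 2 identifiers, also had 3, and its peaks of 21579 and 21162 bp overlapped. HNRNPH1, a splicing regulator, and SCO1, which delivers copper to cytochrome oxidase, had 2 each. Overlaps were rare: 47 wide peaks (4.41%) overlapped another listed peak, 41 of them one of the same gene.

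Most member genes also carried m6A peaks elsewhere. Another listed peak of any class was present on 631 (61.0%, 58.0 to 63.9%), against 58.9% (56.7 to 61.0%) of genes with a narrow 3' UTR peak. A wide exon peak was on 367 (35.5%, 32.6 to 38.4%), against 28.4% (26.4 to 30.4%), and a narrow exon peak was on 171 (16.5%, 14.4 to 18.9%), against 22.2% (20.4 to 24.1%). The intervals of the 2 groups did not overlap for either kind of exon peak, but they cover counting error only, the groups share 150 genes, and no test was made. Of all 8986 genes with a peak, 46.0% had another one, 47.8% had a wide exon peak and 41.1% a narrow exon peak. The member genes were thus below all genes for both kinds of exon peak, but all genes include those listed for an exon peak alone. A 5' UTR peak was on 143 (13.8%), against 12.1%.

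Among genes of mRNA 3' end formation, 5 of the 18 symbols with any peak had a wide 3' UTR peak (27.8%) and 0 had a narrow one. Over all 7802 symbols with a peak the shares were 13.0% and 24.3%. CPSF6, of the cleavage factor that helps choose the poly(A) site, had an FPKM of 25.4, 33.8 and 36.2, and its peak of 9427 bp (chromosome 5, 61684396 to 61693822) ran 7389 bp past the listed 3' end. CPSF3, the nuclease that cuts the pre-mRNA, had 20.5, 14.4 and 17.1, and its peak of 3270 bp ended on the last base. The scaffold SYMPK had 20.7, 19.7 and 19.1, WDR33, which reads the poly(A) signal, had 12.1, 11.2 and 11.1, and the poly(A) polymerase PAPOLG had 4.76, 3.91 and 3.74.

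Of 44 symbols for deadenylation, microRNA function and 3' UTR binding, 5 had a wide (11.4%) and 14 a narrow (31.8%) 3' UTR peak, beside 13.0% and 24.3% of all symbols. The 5 were CNOT8, CNOT6L and CNOT10 of the CCR4-NOT deadenylase, PAN3 of the PAN2-PAN3 deadenylase, and KHSRP, which binds AU-rich elements. KHSRP was the highest, with an FPKM of 31.3, 30.3 and 33.2, and CNOT8 had 22.4, 19.3 and 24.3. In the piRNA pathway, which silences transposons in the germ line, 0 of 10 had a wide and 5 had a narrow peak.

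Of 17 writers, erasers and readers of m6A, 2 had a wide 3' UTR peak (11.8%) and 4 a narrow one (23.5%), near the 13.0% and 24.3% of all symbols. FMR1, an RNA-binding protein that also binds m6A-marked mRNA, had an FPKM of 8.41, 11.6 and 9.81 and a peak of 16866 bp. VIRMA, the writer subunit that guides methylation toward the 3' UTR, was on 2 neighbouring identifiers. The wide peak (chromosome 18, 62154703 to 62204444) was on ENSBGRG00000008611, with 2.94, 2.82 and 2.73. The other, ENSBGRG00000008337, had a narrow 3' UTR peak of 200 bp and an FPKM of 24.3, 24.2 and 27.1, and its listed terms were those of mRNA processing, whereas the terms of the first were those of transposition, as they also were on member genes such as ACVR2A and RIPK1. The wide peak therefore could not be assigned to the writer subunit with certainty.

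Several signalling receptors were members. In TGF-beta and BMP signalling 4 of 29 symbols had a wide peak (13.8%, near the 13.0% of all symbols) and all 4 were receptors. ACVR2B had an FPKM of 6.47, 7.42 and 7.66, ACVR2A had 5.07, 5.14 and 4.05, BMPR2 had 4.83, 5.43 and 5.89, and BMPR1B had 0.60, 0.66 and 1.04. Their levels were low, and BMPR1B was under 1 in 2 of 3 animals.

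In the Hippo pathway, which restrains organ growth, 3 of 18 were members (16.7%, beside 13.0% of all symbols). They were the effector YAP1 (14.9, 15.2 and 17.3), the upstream regulator NF2 (14.1, 13.2 and 12.6) and VGLL3. The peaks of YAP1 and NF2 ran 2174 and 11780 bp past the listed 3' end. In Wnt signalling 2 of 25 were members (8.0%), the kinase CSNK1A1, with 2 wide peaks, and the transcription factor TCF7L2, whose peak of 3968 bp began on the last base of the listed transcript.

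Actin regulators had 6 of 45 (13.3%) and apoptosis genes 3 of 21 (14.3%), shares near the 13.0% of all symbols. The former were EZR, RDX, ARHGEF7, ARHGEF6, IQGAP1 and ROCK2, led by ezrin (EZR), a relative of radixin, with 61.3, 59.2 and 59.4. Among the latter, RIPK1, a kinase of death receptor signalling, had 12.6, 11.7 and 12.7, MDM2, which holds p53 low, had 7.25, 10.04 and 9.09, and CFLAR, which blocks caspase 8, had 3.12, 4.28 and 4.76.

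Of the genes that the study names for this tissue, 5 of 19 with a peak were members (26.3%, beside 13.0% of all symbols). VGLL3, a cofactor of TEAD transcription factors, had a peak of 29281 bp (chromosome 1, 982395 to 1011675) that covered 52.0% of its transcript and stopped 590 bp short of the 3' end. Its FPKM was 2.25 in TES5, 1.93 in TES6 and 5.14 in TES7, so TES7 stood above the other animals. A narrow peak of 149 bp lay in exon 2 of 5. DONSON, a protein of the replication fork, had a peak of 1113 bp (chromosome 1, 37231825 to 37232937) that stopped 647 bp short. Its FPKM was 15.4, 15.2 and 11.2, lowest in TES7, and it also had peaks of 258 bp in exon 7 and 300 bp in the 5' UTR. CNST, a trafficking receptor for connexins, had 2.08, 2.14 and 2.60, and the gene listed as NFE2L3, a symbol on 3 identifiers, had 106, 130 and 106. Its listed terms were RNA binding and mRNA export, and those of DNA binding were on other identifiers with the symbol, so the gene was not settled. The remaining member was VIRMA, whose wide peak could not be assigned to the writer subunit with certainty. Some of these genes were picked by the study from its own results, and others, such as VIRMA, as known m6A genes. Their number is therefore not independent evidence, and it includes NFE2L3 and VIRMA, which were not settled.

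By cell type, wide 3' UTR peaks were on 3 of the 10 spermatogonial markers and on 0 of the 10 Sertoli, 6 peritubular myoid, 6 macrophage and 5 spermatid markers with any peak. The share over all symbols was 13.0%, and these lists are too short to set one cell type against another. The 3 were the receptor FGFR3 (27.6, 19.7 and 20.9), FOXO1 (14.9, 19.4 and 19.9) and ZBTB16 (6.61, 8.76 and 11.2), the last 2 being transcription factors of undifferentiated spermatogonia. The peak on ZBTB16 stopped 33174 bp short of the 3' end of its listed transcript. Endothelial markers had 3 of 6, KDR, PECAM1 and EMCN, all low, with KDR the highest at 5.23, 6.07 and 5.08. Leydig cell markers had 1 of 4, PDGFRA (13.5, 21.9 and 21.8), and spermatocyte markers had 1 of 22, MEIOB, a meiotic recombination factor (9.51, 5.10 and 6.48). The lists hold few genes, and no list was tested.

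**Figure D5:**
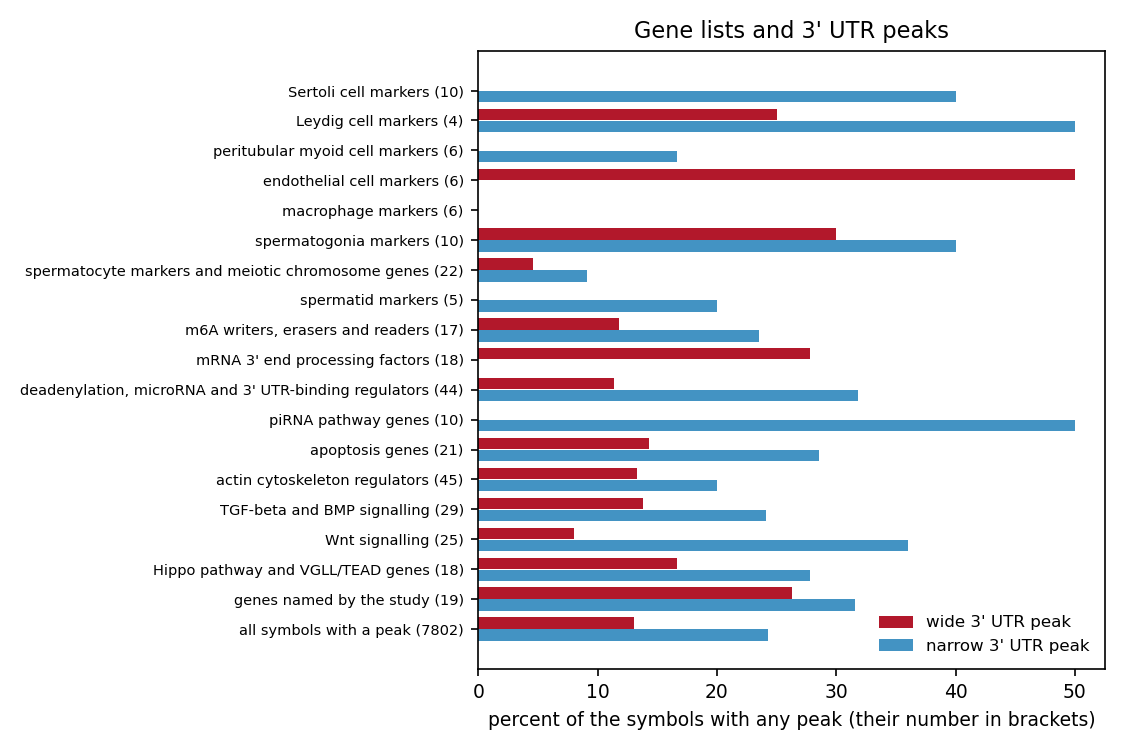
For each gene list, the percent of its symbols with any peak (number in brackets) that have a wide (red) or a narrow (blue) 3' UTR peak; the lowest pair gives all 7802 symbols with a peak, 13.0% and 24.3%. The 3' end processing factors have wide peaks only (5 of 18), and the piRNA genes narrow ones only (5 of 10).

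The member genes varied between animals about as much as all genes with a peak did. In the 984 genes that reached an FPKM of 1 in each of the 3 libraries, the median coefficient of variation was 11.3%, and in all genes with a peak it was 11.6%. Pearson's r of log2 values across genes was 0.98 for TES6 with either TES5 or TES7, and 0.97 for TES5 with TES7. Without TES5 the median coefficient fell to 6.71%. Genes are not independent replicates, and these r values describe likeness only.

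A few members varied more. Among those with a mean FPKM of at least 10, the largest coefficient, 58.7%, was that of CALR3, a testis form of calreticulin, with 16.0 in TES5, 9.92 in TES6 and 4.23 in TES7. SMOC2, a secreted matrix protein, had 9.30, 6.95 and 19.6, high in TES7. The gene listed as NRGN, whose listed terms were those of sperm binding to the egg coat and of the sperm fibrous sheath, had 53.0, 30.1 and 17.7, and SRP19, of the signal recognition particle, had 22.3, 15.2 and 9.10, both lowest in TES7. ZNF182 had 16.1, 6.88 and 8.17, high in TES5. The named germ cell markers also differed between the animals. The summed FPKM of the spermatid markers was 101.2 in TES5, 68.1 in TES6 and 66.3 in TES7, and 5 of their 7 identifiers stood in that order from high to low. Most of each sum came from ODF2 of the sperm tail (44.0, 30.6 and 17.5) and 1 identifier of HSPA1L (35.7, 19.0 and 33.5). The former was among the 5 and the latter was not. CREM went the other way, lowest in TES5 (0.16, 1.19 and 0.81). For the spermatocyte markers the sums were 283, 198 and 200.1, and 19 of 28 identifiers were highest in TES5. Their part in the values of CALR3, NRGN and SRP19 was not tested. The member identifiers of SNX30, BCAS2 and PRKRIP1 were listed at an FPKM of 0 in all 3 animals despite their peaks, and the peaks of the last 2 contained transcripts of 327 and 1029 bp whole. BCAS2 was also on a second identifier, with 13.8, 9.45 and 9.98 and a narrow 5' UTR peak.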

How the data were processed

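MeRIP-seq of testis tissue gave IP and input libraries of 3 cattle-yaks. Per the study's methods, the authors trimmed reads with Trimmomatic, removed ribosomal RNA with SortMeRNA, aligned with HISAT2 2.0.4 to LU_Bosgru_v3.0, called peaks with MeTDiff and annotated them with ChIPseeker. How the single list for the group was made from the animals, and the program behind the FPKM, are not given in the sources used here. The FPKM values of the input libraries were deposited by the authors for 20953 genes.

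Members were the peaks annotated as 3' UTR with a width above 1000 and up to 50000 bp, joined to FPKM by gene identifier. Edges were measured along the strand of the listed transcript. Medians were taken per animal and then averaged, and shares have Wilson 95% intervals, which cover counting error only. With 1 condition and 1 list, no groups of samples could be compared. The difference between genes with wide and narrow peaks was taken within each animal, with an exact sign-flip permutation over 3 animals. The members, gene lists and rules were chosen with earlier results of these data known. Named genes were the 10 widest, the 10 of highest mean FPKM, the 5 with the most wide peaks, the 5 most variable with a mean FPKM of at least 10, those named by the study, up to 4 per gene list and those beside the width limits. PAPOLG, PAN3, IQGAP1 and ROCK2, and the 3 members at 0, were named after their values were seen, and so were the spacing of widths and the bins of FPKM chosen. No sequence was read, since no genome of this build was used here. The work was run in Python 3.11.15 (matplotlib 3.10.9, SciPy 1.17.1, pandas 2.3.3), and its procedures were tested on simulated data.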

Additional observations from a re-analysis of the deposited data

How the results depend on the processing

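No paired analysis was possible because the IP libraries have no values per animal here, so no fit with the animal as a replicate block could be made between IP and input. The difference between wide and narrow was taken within each animal. The limits of width set the share of wide peaks, which was 44.6% when peaks wider than 500 bp counted as wide and 23.6% when only those wider than 2000 bp did. By symbol, 67.8% of member genes had another listed peak. The median FPKM was 10.2 over genes above 0 in every library and 10.7 over those at 1 or more, and 10.03 to 10.12 with each animal left out. The log2 difference between wide and narrow stayed above 0 in every alternative run. It was 0.27 for genes that reached an FPKM of 1 in all libraries, 0.36 on log2(FPKM + 1), 0.47 without the genes that had both kinds, 0.34 with the limit at 2000 bp, 0.47 with it at 500 bp, 0.39 for symbols on 1 identifier only (an alternative chosen after seeing the data), 0.35, 0.56, 0.35 and 0.55 in the 4 classes of span, and 0.40 to 0.41 with each animal left out. At a minimum FPKM of 0.5, 97.2% of member genes passed in every library, by the mean of the animals 96.8% passed 1, and with each animal left out 95.5 to 96.0%. The median coefficient of variation ranged from 6.71 to 10.7% with each animal left out, the lowest without TES5. The share of widths on the grid of 50 bp was 2.25% in wide and 25.2% in narrow peaks without tolerance, and 11.0% and 67.0% with 2 bp on both sides. A stricter peak threshold was not run, since the list has no scores, and sequence was not analysed here. The list cannot show how many animals carry a peak, and the depth behind a value is unknown.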

Other observations

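The annotation terms listed for the member genes, looked at after the values were known, were led by the nucleus, on 360 of the 934 member genes with a term (38.5%), compared with 32.2% of the 1783 genes with a narrow 3' UTR peak and 35.3% of all 7944. The term for RNA-directed DNA polymerase activity, an activity of retrotransposons, was on 199 member genes (21.3%), compared with 13.9% and 16.7%. It was also listed on ACVR2A, RIPK1 and MEIOB, described above as a receptor, a kinase and a meiotic factor. The term therefore cannot be read as the function of the member genes. The term for integral components of the membrane was on 59 (6.32%), compared with 14.0% and 10.4%. These shares were not tested.

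Wide 3' UTR peaks were on every numbered chromosome, X and Y, with 65 on chromosome 8, 30 on X and 4 on Y. As a share of the 3' UTR peaks of a chromosome they ranged from 18.2% of 22 on Y to 48.1% of 79 on chromosome 10.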
